A study of Mus musculus and Homo sapiens with 9 samples.

Results

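The cytosolic ribosomal protein genes encode the proteins of the small and large subunits of the cytoplasmic ribosome. They were chosen by symbol (Rps or Rpl with a number and an optional a or x, plus Rpsa, Rplp0, Rplp1 and Rplp2) among the RefSeq protein-coding genes of GRCm38, the assembly of mm10. This gave 76 of 21887 genes, 30 for the small subunit and 46 for the large one. A gene counted as occupied by thymine DNA glycosylase (TDG) when a TDG summit lay within 1 kb of either of its ends. It counted as assigned to p53 when it held a p53 summit or was the gene nearest to one.

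The series profiled TDG and p53 by chromatin immunoprecipitation and sequencing in 9 samples. The 2 peak lists used here are of the mouse melanoma line B16 with the genotype Tdg HA knockin, immunoprecipitated with an HA antibody for tagged TDG and with a p53 antibody. Both lists therefore share the tagged allele, no treatment is given for them in the labels, and whether the line is 1 clone is not stated there. The other 7 samples (input, IgG, the HA antibody in WT cells, the p53 antibody in Trp53 KO cells, and the human lung cancer line H1299 with FLAG-TDG) were not analysed here.

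Every list stood for 1 library without a replicate, so no difference below carries a test of spread between cultures. The TDG list held 3410 peaks with 15 to 613 reads at the summit, and the p53 list 126 peaks with at least 23 reads. The recovery of reads searched no further than 2999, a limit that the highest p53 value reached, so the largest p53 count is not known. Library totals are not part of these lists. Whether the peaks depend on the tag or on p53 was not tested. Peak lists give occupancy and not expression, so the melanoma identity of the cells could not be checked. Of 7 melanocyte markers, Mitf and Pmel were occupied by TDG at an end (28.6%, exact interval 3.67 to 71.0%), an interval that contains the 12.3% of all protein-coding genes.

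TDG removes thymine mispaired with guanine and oxidised forms of methylcytosine, and so starts their replacement by base excision repair. Ribosomal protein genes are short and among the most strongly transcribed genes of growing cells. Their promoters are typically rich in CpG, lack a strong TATA box and start transcription at a cytosine within a run of pyrimidines. This terminal oligopyrimidine tract places the translation of their messages under control of the mTOR pathway. When ribosome assembly fails, free ribosomal proteins such as RPL5 and RPL11 bind MDM2, the ubiquitin ligase that degrades p53, and p53 accumulates.

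The sequences below show the promoters of the 5 most enriched genes whose TDG summit lay within 150 bases of an annotated start. Each runs 5′ to 3′ from 150 bases before the start to 20 bases from it, and base 151 is the start (RefSeq, GRCm38.p6). Capitals mark GGGCGG (the Sp1 box), CCGGAAG (the core bound by ETS factors such as GABP) and TGACGTCA (the cyclic AMP response element), in either orientation.
Rpl37 (chr15:5116463-5116632, plus strand): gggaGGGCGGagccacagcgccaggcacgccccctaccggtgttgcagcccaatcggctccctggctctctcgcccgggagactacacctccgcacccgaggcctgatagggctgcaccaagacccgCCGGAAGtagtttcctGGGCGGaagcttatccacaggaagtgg
Rps21 (chr2:180257229-180257398, plus strand): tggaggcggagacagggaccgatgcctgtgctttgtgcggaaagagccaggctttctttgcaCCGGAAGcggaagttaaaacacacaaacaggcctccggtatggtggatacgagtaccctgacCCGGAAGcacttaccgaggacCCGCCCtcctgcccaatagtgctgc
Rpl27a (chr7:109519045-109519214, plus strand): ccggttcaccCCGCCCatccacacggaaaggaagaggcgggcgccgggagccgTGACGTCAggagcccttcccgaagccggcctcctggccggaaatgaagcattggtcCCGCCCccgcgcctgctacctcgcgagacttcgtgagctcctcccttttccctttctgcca
Rpl27 (chr11:101442095-101442264, plus strand): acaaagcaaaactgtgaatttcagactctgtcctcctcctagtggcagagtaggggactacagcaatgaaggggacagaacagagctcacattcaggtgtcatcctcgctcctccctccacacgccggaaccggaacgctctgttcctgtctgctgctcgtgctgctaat
Rpl31 (chr1:39367701-39367870, plus strand): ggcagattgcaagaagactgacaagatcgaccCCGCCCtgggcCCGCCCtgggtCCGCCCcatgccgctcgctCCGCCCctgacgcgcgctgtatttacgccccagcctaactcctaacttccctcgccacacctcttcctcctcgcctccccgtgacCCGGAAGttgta

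The TDG summit lay at base 26 of the Rpl37 sequence, base 48 of Rps21 and base 54 of Rpl27a. At Rpl27a that base is the first of the cyclic AMP response element. In Rpl31 the summit lay at base 104, between the cluster of Sp1 boxes and the start, and in Rpl27 at base 154, just after the start. The 170 bases held 17 CpG dinucleotides at Rpl27a, 15 at Rpl31, 12 at Rpl37, 10 at Rps21 and 6 at Rpl27. Rpl27 had none of the 3 marked motifs in this stretch.

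TDG peaks lay at 16 of the 76 ribosomal protein genes (21.1%, exact binomial 95% interval 12.5 to 31.9%). Over all protein-coding genes, the share was 12.3%. The 16 were 4 small subunit genes (Rps18, Rps19, Rps21 and Rps25) and 12 large subunit genes (Rpl7, Rpl7a, Rpl21, Rpl24, Rpl27, Rpl27a, Rpl30, Rpl31, Rpl32, Rpl35, Rpl36 and Rpl37). Each had 1 peak. The remaining 60 genes had none, among them Rpl5 and Rpl11, whose nearest TDG summits were 610839 and 232767 bases away, and Rps6, the substrate of S6 kinase, with a nearest summit 16993 bases away. Intervals of shares cover counting error only, and neighbouring genes are not independent.

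Fold enrichment, the authors' ratio of summit reads to local background, ranged from 4.32 to 8.59 over these peaks. The 4 highest were Rpl37, Rps21, Rps19 and Rpl27a. Rpl37, a zinc-binding large subunit protein, reached 8.59-fold with 32 reads at the summit and a −log10 q of 16.3 (mm10, chromosome 15, 5116298 to 5116604). This was above 92.8% of all gene-end TDG peaks. Rps21, a small subunit protein, reached 7.81-fold with 29 reads (chromosome 2, 180257038 to 180257359). Rps19, a small subunit protein whose human gene is mutated in Diamond-Blackfan anaemia, reached 7.55-fold with 28 reads (chromosome 7, 24884046 to 24884471). Rpl27a had 7.29-fold and 27 reads (chromosome 7, 109518859 to 109519156). These 4 lay above the upper quartile of the 2274 other gene-end TDG peaks (6.94-fold).

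Rps25, Rpl30, Rpl36 and Rpl27 followed within the upper part of the common range, each with 23 to 25 reads at the summit. Rps25, which some viral messages need for internal ribosome entry, had 6.77-fold enrichment (chromosome 9, 44406902 to 44407605). Rpl30 had 6.53-fold, Rpl36 6.51-fold and Rpl27 6.25-fold. Below the median of the other peaks (5.99-fold) came Rpl31 with 5.55-fold and Rps18, a protein of the small subunit head, with 5.47-fold. Rpl31 had 30 reads at its summit but also the highest local background of the 16, at 4.18 reads.

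The last 6 genes lay below the lower quartile of the other peaks (5.16-fold), and all were of the large subunit. Rpl7a had 5.07-fold enrichment. Rpl24, the gene of the mouse mutant Belly spot and tail, and Rpl35, whose protein sits at the exit tunnel, both had 4.95-fold with 18 reads. Rpl7 had 4.70-fold with 17 reads, Rpl21 4.43-fold with 20 reads and Rpl32 4.32-fold with 18 reads. Rpl7, Rpl21 and Rpl32 had a −log10 q below 5, at 4.37, 4.91 and 4.13, against a lowest value of 3.02 in the whole list.

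**Figure D1:**
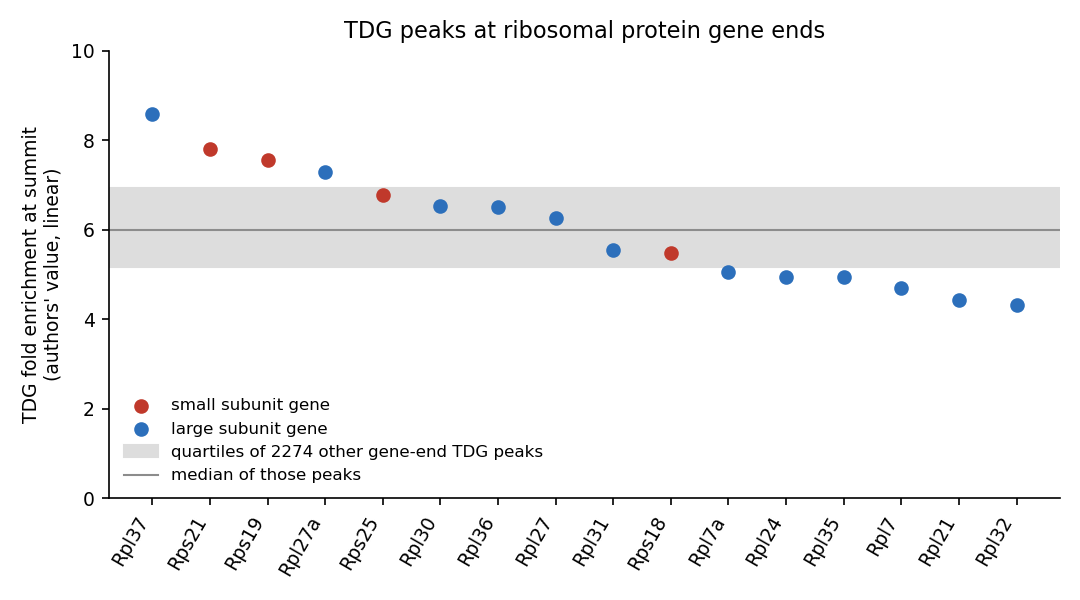
Fold enrichment of the 16 TDG peaks at ribosomal protein genes, on a linear axis, for small (red) and large (blue) subunit genes, with the median (line, 5.99) and quartiles (band, 5.16 and 6.94) of 2274 other gene-end TDG peaks. Of the 16 points, 4 lie above the band and 6 below it.

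As a group the peaks were of ordinary strength but narrow. Their median fold enrichment was 5.90 (quartiles 4.95 and 6.90), against 5.99 for the other gene-end peaks, and 8 of the 16 were at or above 5.99. Their median width was 318.5 bases (quartiles 301 and 387), against 434 bases (quartiles 331 and 590.75) elsewhere. Rps25 had the widest peak at 704 bases and Rpl35 the narrowest at 268 bases. None of the 16 lay in a region of high local background, here 10 reads or more, and 11 of them had the genome-wide background of 2.56 reads.

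Where the start was known, TDG lay close to it. RefSeq promoter entries, which give strand and start, matched 56 of the 76 genes, 11 of them with a peak. All 11 summits lay within 500 bases of a listed start, and 9 of them were upstream of it. The signed distances ran from 417 bases upstream at Rps19 to 56 bases downstream at Rpl24, with a median of -125 bases. Rpl27 was the other gene with a downstream summit, at 3 bases. Among other protein-coding genes with a gene-end peak, 85.5% of 2300 pairs of a gene and a summit lay within 500 bases of a start and 65.2% had the summit upstream. The median there was -79.5 bases for summits within 1 kb of a start, with quartiles of -184 and 40 bases. Rpl7, Rpl21, Rpl30, Rpl32 and Rpl36 had no such entry. Their summits lay between 74 and 361 bases from a gene end.

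**Figure D2:**
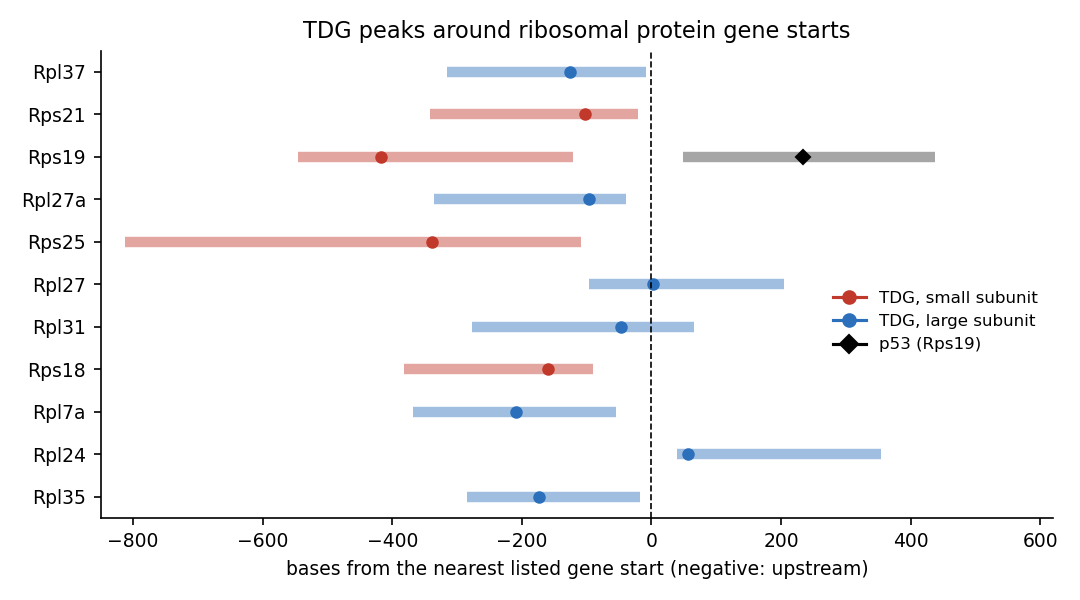
Extent of TDG peaks (bars) and their summits (points) around the nearest listed start of 11 ribosomal protein genes, in bases, with upstream to the left, for the small (red) and large (blue) subunit, and the p53 peak at Rps19 (black bar and diamond, drawn from the first listed start). Of the TDG summits, 9 of 11 lie left of the start.

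The 1 kb limit decided little. The farthest summit inside it was that of Rps19 at 417 bases. The nearest summits outside it were 2305 bases from Rpl24 (5.47-fold), 2548 bases from Rpl23a (6.26-fold) and 2994 bases from Rpl35 (4.87-fold). Rpl24 and Rpl35 already had a peak at their starts. Of the 60 genes without a gene-end peak, 1 had a TDG summit within 3 kb (1.67%) and 8 within 10 kb (13.3%), against 4.04% and 7.72% of 19138 other genes without a gene-end peak. The members were thus below other genes at 3 kb and above them at 10 kb, on 1 and 8 genes, too few to set them apart. In these shares a summit deep inside a gene also counted as near. Other genes are longer (median 17259 bases against 3169.5), so the shares are not of gene ends alone.

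Small and large subunit genes were set side by side. A TDG peak lay at 4 of 30 small subunit genes (13.3%, exact interval 3.76 to 30.7%) and at 12 of 46 large subunit genes (26.1%, interval 14.3 to 41.1%). The intervals overlapped widely, so a difference between the subunits was not resolved by these numbers of genes. The small subunit peaks had a median of 7.16-fold with a range of 5.47 to 7.81. The large subunit peaks had a median of 5.31-fold with a range of 4.32 to 8.59, which spans the small subunit values. The 5 peaks below 5-fold all belonged to large subunit genes.

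Peak density differs between chromosomes, so the genes were also compared with others of the same chromosomes. Members lay on 19 chromosomes, where 2616 of 20850 other protein-coding genes (12.5%) were occupied. Weighted to the chromosomes of the members, other genes gave 12.4%, or 9.45 genes in place of 16. For the small subunit the weighted value was 11.5%, or 3.44 genes in place of 4, and for the large subunit 13.1%, or 6.0 genes in place of 12. The interval of the large subunit (14.3 to 41.1%) began just above its weighted background, and that of the small subunit contained its own. Under 4 of 9 other settings (the weaker-than-median peaks dropped, starts only, ends or listed starts, and a −log10 q limit of 5) the large subunit interval contained its weighted background, such as 9.36 to 33.9% against 11.7% under the q limit. The interval over all members, which began at 12.5%, contained its weighted background under 7 of 9. These intervals treat genes as independent draws, which they are not.

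By chromosome, the occupied genes lay as follows. Chromosome 2 had 3 of its 4 members occupied (Rpl7a, Rpl35 and Rps21), while 10.2% of its other genes were. Chromosome 1 had 2 of 3 (Rpl7 and Rpl31) and chromosome 15 had 2 of 4 (Rpl37 and Rpl30), where 14.7% and 22.8% of other genes were occupied. Chromosome 7 held the most members, 14, of which Rps19 and Rpl27a were occupied (14.3%), against 10.7% of its other genes. Chromosome 17 had 2 of 6 (Rps18 and Rpl36), against 15.3%. Chromosomes 5 (Rpl21), 6 (Rpl32), 9 (Rps25), 11 (Rpl27) and 16 (Rpl24) had 1 each, of 5, 1, 6, 7 and 2 members. Their other genes were occupied in 11.4, 25.6, 11.6, 19.7 and 23.0%, in that order. Neither of the 2 members on chromosome 12 had a peak (24.4% of other genes), nor did the 2 on chromosome 3 (9.58%) or the 1 on chromosome 13 (8.45%). None of the 5 members on chromosome 4 or the 4 on chromosome 10 had a peak, where 9.22% and 10.8% of other genes did, so that fewer than 1 occupied member would be counted on each at those shares. Chromosomes 8, 14, 18 and X, which have few TDG peaks at any gene, held 10 members and none was occupied. On the X chromosome this covered Rpl10, Rpl36a, Rpl39 and Rps4x, and 0.104% of its other genes had a peak.

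**Figure D3:**
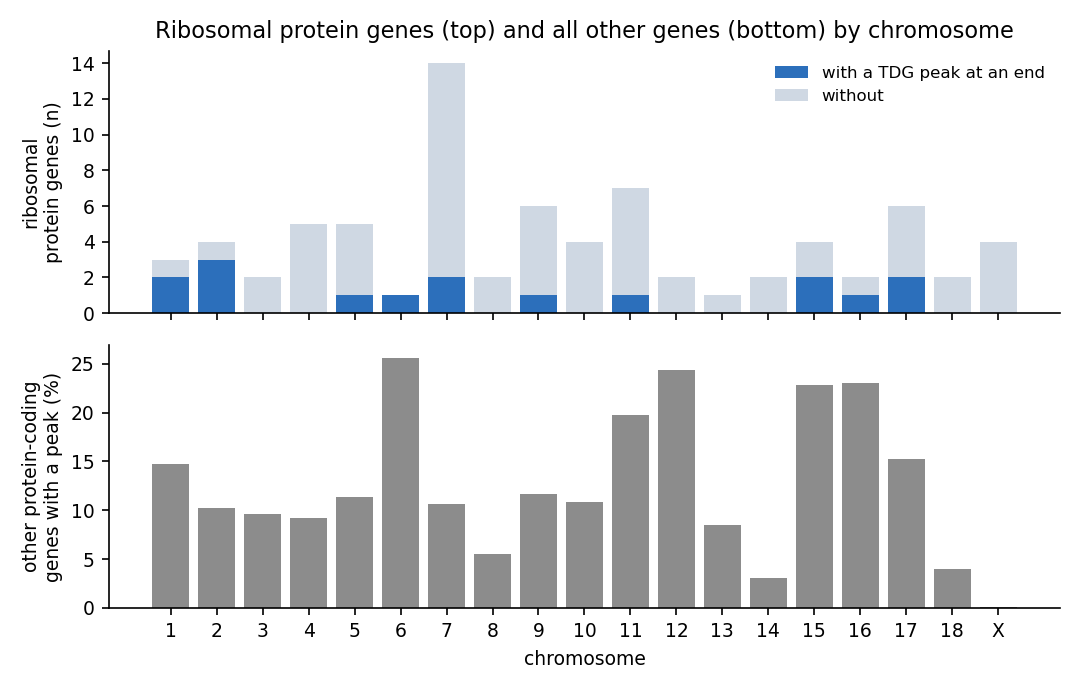
Ribosomal protein genes by chromosome (top, number of genes, with a TDG peak at an end in dark blue) and share of other protein-coding genes with such a peak (bottom, percent). Chromosome 7 has 14 members with 2 occupied, and chromosome 2 has 4 with 3 occupied.

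Many ribosomal protein genes lie close to another gene. Another protein-coding gene had an end within 1 kb for 28 of 76 members (36.8%), against 24.7% of other genes. Of those 28, 10 had a TDG peak (35.7%, exact interval 18.6 to 55.9%), and of the 48 isolated members 6 had one (12.5%, interval 4.73 to 25.2%). Other protein-coding genes gave 22.1% and 9.02% in the same classes. The single peak counted for the neighbour as well at 5 of the 16 genes (31.2%), close to the 33.3% found over other occupied genes. These neighbours were Card6 at Rpl37, Trappc4 at Rps25, Micos13 at Rpl36, Vps52 at Rps18 and Med22 at Rpl7a. In each of these 5 cases the summit was nearer to an end of the neighbour. It lay 125 bases from Rpl37 and 74 from Card6, 338 from Rps25 and 172 from Trappc4, and 221 from Rpl36 and 102 from Micos13. It lay 159 bases from Rps18 and 45 from Vps52, and 87 from Rpl7a and 44 from Med22. The peak cannot be given to either gene of a pair from position alone.

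Many ribosomal protein genes carry snoRNA genes in their introns, whose RNAs guide the modification of ribosomal RNA. RefSeq placed at least 1 snoRNA gene inside 29 of the 76 members (38.2%), against 1.57% of other protein-coding genes. TDG peaks were about equally frequent at hosts, 6 of 29 (20.7%), and at non-hosts, 10 of 47 (21.3%), against 14.9% of other hosts and 12.2% of other non-hosts. The occupied hosts were Rpl7a, Rpl21, Rpl27a, Rpl30, Rpl32 and Rpl37. Members were also shorter, with a median of 3169.5 bases, against 17259 bases for other genes. Other genes no longer than the longest member (11774 bases) were occupied in 9.01% of 8721 instances.

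Promoter composition was compared over the 300 bases of the RefSeq entries, from 250 before to 50 after the start. The 11 entries of occupied ribosomal protein genes had a median GC content of 60.7%, against 57.0% for the 45 without a peak. Their ratio of observed to expected CpG had a median of 0.854 (quartiles 0.622 and 0.953), against 0.903 (0.739 and 1.01) without a peak. For other protein-coding genes the same medians were 0.810 with a peak and 0.496 without. The median was thus slightly lower with a peak than without among ribosomal protein genes, and higher with a peak among other genes.

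Most ribosomal protein promoters were CpG-rich, so their share was also set beside that of CpG-rich promoters. A ratio of at least 0.6 was found at 48 of the 56 entries. Among these 48, 8 had a TDG peak (16.7%, exact interval 7.48 to 30.2%), against 22.3% of 8418 other genes with such promoters. Of the 8 members below 0.6, 3 had a peak (37.5%, exact interval 8.52 to 75.5%): Rpl27 (0.536), Rps25 (0.542) and Rpl24 (0.587). Among 9018 other genes below 0.6, 4.14% had one. Over all genes the share of the members was above the background (21.1% against 12.3%). Among genes with a promoter entry it was 19.6% (11 of 56, interval 10.2 to 32.4%), against 12.9% of other genes. Among CpG-rich promoters the members' share was below that of other genes, with an interval that contained their value. Below 0.6 it was above that of other genes, with an interval that began above their value, on only 8 members. These 8 had ratios of 0.421 to 0.598, near the cut, whereas the lower quartile over all other entries was 0.220. The sets below 0.6 were thus not alike in CpG ratio.

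The motif searches read both strands. CCGGAAG, the ETS core, was in 22 of 56 ribosomal protein promoters (39.3%), against 11.8% of 17436 other promoters. It was in 7 of the 11 occupied ones (Rpl27a, Rpl31, Rpl35, Rpl37, Rps18, Rps21 and Rps25) and in 15 of the 45 unoccupied ones (33.3%). Turned round, 7 of 22 ribosomal protein promoters with CCGGAAG had a TDG peak (31.8%, exact interval 13.9 to 54.9%) and 4 of 34 without it did (11.8%, interval 3.30 to 27.5%). Over other genes the shares were 22.0% and 11.7%. GGGCGG was in 8 of 11 occupied ribosomal protein promoters and 25 of 45 unoccupied ones (55.6%), against 75.2% and 42.0% elsewhere.

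The other motifs were rarer. AAGATGG, bound by YY1, was in 9 of 56 ribosomal protein promoters (16.1%), against 6.32% elsewhere, and 1 of these 9, Rpl7a, was occupied (11.1%), against 14.8% of other genes with the motif. TGACGTCA was in 5 (8.93%), against 2.31% elsewhere. Of these 5, Rpl27a was occupied (20%), against 25.4% of other genes with the motif. CACGTG, the E-box, was in 5 (8.93%), against 7.91% elsewhere, TATAAA was in 6 (10.7%), against 13.4%, and the NRF1 element was in 1, Rpl37a (1.79%), against 1.33%. None of these matches fell in an occupied promoter. Among other genes the occupied share was 16.4% with the E-box, 4.17% with TATAAA and 24.1% with the NRF1 element. A cytosine at the listed start followed by 4 pyrimidines was found in 12 of 56 entries (21.4%), against 2.10% elsewhere. Of these 12, Rpl35, Rps18 and Rps21 were occupied (25%), against 11.4% of other genes with such a start. The search for this start took the listed base as exact. At Rpl27a the listed start is a thymine within a run of pyrimidines, and it was not counted. The 12 are therefore not a count of all members with such a tract. A match describes letters in the window and does not show a bound factor.

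**Figure D4:**
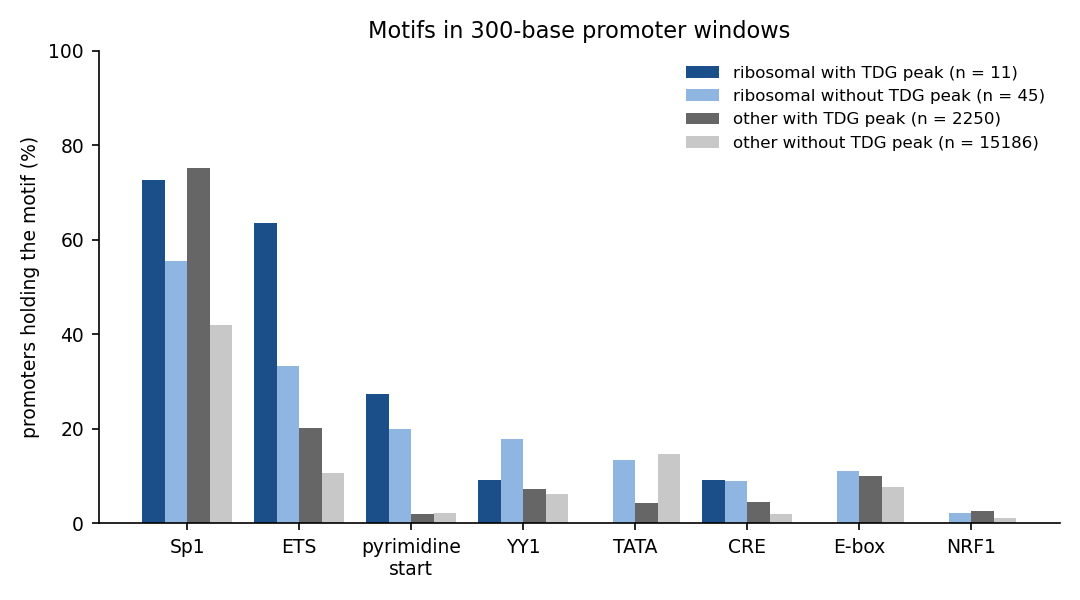
Share of 300-base promoter windows holding each motif (percent, linear axis from 0), for ribosomal protein genes with (dark blue, 11) and without (light blue, 45) a TDG peak at an end and other protein-coding genes with (dark grey, 2250) and without (light grey, 15186) one. The ETS core was in 63.6 and 33.3% of the ribosomal protein windows and in 20.1 and 10.6% of the others.

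p53 was assigned to 1 of the 76 genes, Rps19 (1.32%, exact interval 0.0333 to 7.11%). Over all protein-coding genes the share was 0.512%, which lies within this interval. The p53 peak (mm10, chromosome 7, 24884641 to 24885030) reached 13.7-fold with 68 reads at the summit, a local background of 3.0 reads and a −log10 q of 41.4. It ranked 62 of 126 p53 peaks by fold enrichment. No other member had a p53 summit within 10 kb. Rpl23a was the next nearest, at 14539 bases, and Rps10 followed at 242719 bases. Rpl23a also had the TDG summit 2548 bases away, so both proteins had a peak in its surroundings and neither at its ends.

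Rps19 was thus the only member with peaks of both proteins, and they did not overlap. RefSeq lists starts of Rps19 at 24884592, 24884676 and 24884913 on the plus strand. The p53 summit at 24884826 lay 234 bases after the first, 150 after the second and 87 before the last. The TDG summit lay 417 bases before the first start. The 2 summits were 651 bases apart and 169 bases separated the peaks. In mice, a missense allele of Rps19 (Dark skin 3) is known to stabilise p53 in the epidermis and to increase melanocytes there.

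The promoter entry of the last start covered the p53 summit and was searched for the p53 response element, a pair of adjacent decamers. A 20-base match with at most 2 mismatches, a limit chosen after this match had been seen, lay at 24884803 to 24884822, with its centre 13.5 bases from the summit. The paralog Rps27l, a known p53 target outside the symbol rule, held a match with 1 mismatch whose centre was 3.5 bases from its p53 summit. Both are shown 5′ to 3′ with 5 bases on each side and the element in capitals (RefSeq, GRCm38.p6).
Rps19 (chr7:24884798-24884827, plus strand): gcgagCGGCAGGCCCGGACATGCCTgatcg
Rps27l (chr9:66946291-66946320, plus strand): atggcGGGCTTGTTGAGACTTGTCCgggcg

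Such a match was present in 66 of 21263 promoter windows (0.310%), and in any listed window of 65 of 17492 genes (0.372%). Rps19 was the only one of 56 ribosomal protein genes with a window that held it (1.79%). At Rps27l the p53 peak reached 20.5-fold with 77 reads (chromosome 9, 66946069 to 66946550). TDG occupied neither end of Rps27l. It occupied none of the 7 ribosomal protein paralogs examined (exact interval 0 to 41.0%, against a chromosome-weighted 17.7% of other genes), and Rps27l alone of them was assigned a p53 peak. Nor did any of 3 small subunit genes whose symbols the rule does not take (Fau, Rps3a1 and Rps27rt) have a peak of either kind (interval 0 to 70.8%). Both intervals contain the background, so these counts do not set the genes apart.

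Sublists of the ribosomal proteins were then examined. Of 17 proteins described as binding MDM2, 3 had a TDG peak (17.6%, exact interval 3.80 to 43.4%): Rpl37, Rps19 and Rps25. Of 17 whose human genes are mutated in Diamond-Blackfan anaemia, Rps19, Rpl27 and Rpl31 had one, which is the same share. Both intervals contained the 12.3% over all genes.

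Other genes of ribosome production were occupied at similar or higher shares. TDG peaks lay at 16 of 53 ribosome assembly factors (30.2%, exact interval 18.3 to 44.3%), with Imp4 (7.76-fold), Dcaf13 (7.55-fold), Nop16 (7.29-fold) and Nhp2 (6.72-fold) highest. Imp4, Dcaf13 and Nop16 act in the nucleolus, and Nhp2 is a core protein of H/ACA snoRNPs. Of 18 genes for RNA polymerase I, its factors and RNA polymerase III factors, 5 had a peak (27.8%, interval 9.69 to 53.5%): Taf1b, Polr1d, Gtf3c2, Brf1 and Polr1a. Of 20 other genes with terminal oligopyrimidine messages, 8 had one (40.0%, interval 19.1 to 63.9%), led by Pabpc1 (10.1-fold), Hnrnpa1 (8.33-fold), Eif4b (7.55-fold) and Eef2 (6.25-fold). Mitochondrial ribosomal protein genes, which encode the ribosome of that organelle, were occupied at 15 of 77 (19.5%, interval 11.3 to 30.1%), close to the cytosolic share. Other genes weighted to the chromosomes of each list gave 12.9% (assembly), 14.5% (polymerase), 15.2% (oligopyrimidine) and 13.8% (mitochondrial). The assembly and oligopyrimidine intervals began above these values, and the polymerase and mitochondrial intervals contained theirs. The intervals of all these lists overlapped that of the cytosolic ribosomal protein genes.

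**Figure D5:**
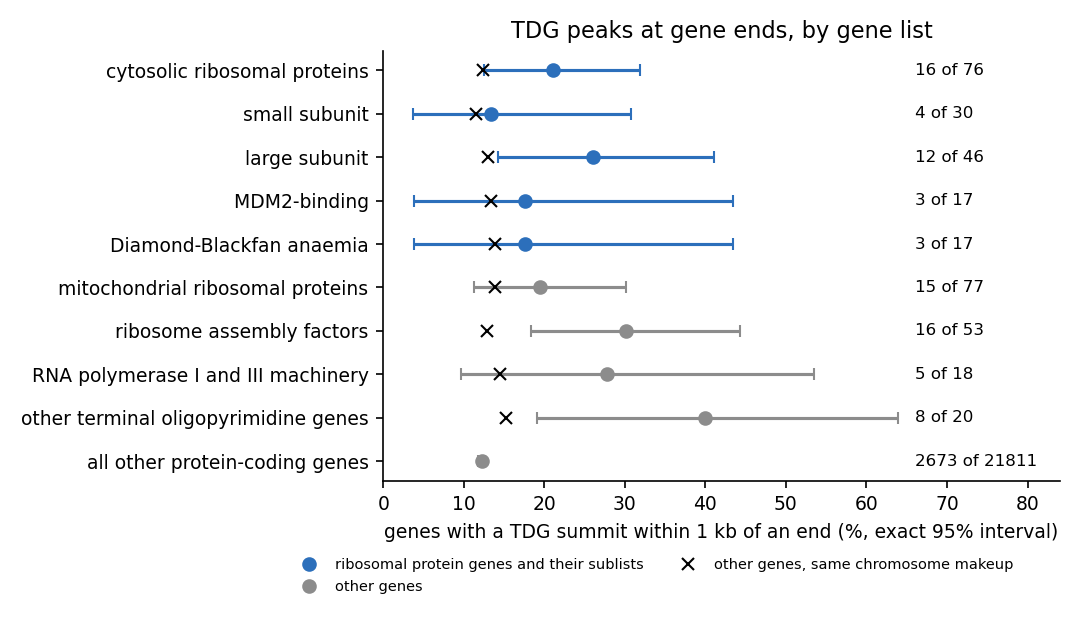
Share of genes with a TDG summit within 1 kb of an end (points, percent) with exact binomial 95% intervals (bars), for the 76 ribosomal protein genes and their sublists (blue), related lists and all other protein-coding genes (grey), with crosses for other genes weighted to the chromosomes of each list. The ribosomal protein genes stand at 21.1%, and all other protein-coding genes at 12.3%.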

How the data were processed

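The submitters' processing notes name the build mm10 and the tools MACS2, ChIPseeker, Bowtie2, deepTools, Picard and Trim Galore, without versions or roles. The control library and the calling threshold are likewise not stated. The authors deposited 2 MACS2 peak lists of 1 library each. In them the authors give the fold enrichment, a deposited ratio of the summit to local background with 1 added to both, so it understates the ratio of reads. They also hold −log10 p and −log10 q values of the summit, and the deposited score, which follows −log10 q. Other deposited columns are positions, converted to count from 1.

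Summit reads and local background were recovered by solving the fold and Poisson p together, with reads scaled by 0.924 (TDG) and 0.792 (p53). The deposited −log10 p was met within 0.002 for 3409 of 3410 TDG and 123 of 126 p53 peaks. Genes were those of the RefSeq table of GRCm38.p6, on placed chromosomes. Starts came from RefSeq promoter entries of the same build, found for 17492 genes and 56 of 76 members. A member without an entry was not searched for motifs. With several starts, the nearest was used for distances and the outermost for motifs.

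With 1 library a group and genes that are not replicates, no test was run. Shares carry exact binomial 95% intervals (scipy 1.17.1) and are set beside all genes and genes of the same chromosomes. The members, lists and rules were chosen with earlier results of these data known. The RNA polymerase, assembly, oligopyrimidine, MDM2 and anaemia lists were written from general knowledge; of their names, 53 distinct genes came from 54 assembly names, 7 from 8 paralog names, and the others matched in full. All occupied members are named, and of other lists up to 4 by fold, or all where 5 or fewer. Assignment and recovery were tested on simulated peaks.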

Additional observations from a re-analysis of the deposited data

How the results depend on the processing

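No paired analysis was possible because each group holds 1 library. The share of ribosomal protein genes with a TDG peak moved only when peaks below the median fold enrichment of the list were dropped. Such a cut can only lower a share, and the background fell with it. The share of the members was then 10.5% (8 of 76 genes), against 6.61% of other genes and 6.77% of other genes weighted by chromosome. The large subunit share moved there as well, to 10.9% (5 of 46), and the small subunit share was 10.0% (3 of 30) there. The large and small subunit shares were thus close at this cut, beside weighted backgrounds of 7.06% and 6.31%. These counts are too small to resolve a difference between the subunits. Under the other 8 settings the share over all members lay between 17.1% (a −log10 q of at least 5, where Rpl7, Rpl21 and Rpl32 drop out) and 22.4% (3 kb). Those settings were windows of 500 bases and 3 kb, the peak interval, starts only, no regions of high background, 3 genes added that the symbol rule does not take (Fau, Rps3a1 and Rps27rt), and listed starts added to gene ends, the last chosen after seeing the data. p53 stayed at 1 gene under all 5 alternatives. The median fold enrichment ranged from 5.55 (3 kb) to 6.51 (−log10 q of at least 5), on either side of the values for other peaks there (5.95 and 6.02). On the −log10 q scale the medians were 9.36 for ribosomal protein genes and 8.65 for other gene-end peaks. The summit distance stayed at -125 bases, or -181 bases for the middle of the peak. Depth limits the list: the lowest read count at a summit among the 16 peaks was 17, so genes without a peak are below detection in 1 library and not shown to lack TDG.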
